A study of Homo sapiens with 20 samples.

Results

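The phagocyte NADPH oxidase and the enzymes that dispose of superoxide were followed through 9 genes in the TPC-1 line, which derives from a human papillary thyroid carcinoma: CYBB, CYBA, NCF1, NCF4, RAC2, NOX4, SOD1, SOD2 and CAT. The genes were taken by name from a gene count table of 54261 features, and all 9 had a row in it. RNA-seq covered 6 libraries of TPC-1 cells grown for 48 h together with PMN-MDSCs, the polymorphonuclear (neutrophil-like) kind of myeloid-derived suppressor cell, named coculture 1 to 6, and 4 libraries of untreated TPC-1 cells, named control 1 to 4. No allele, drug or other agent is named for either group, and both rest on the same single cell line. How the cells were brought together, where the PMN-MDSCs came from and whether the RNA of a coculture library came from TPC-1 cells alone is not stated in the labels. The labels do not call the libraries of a group independent cultures, and every p-value here therefore covers the spread among these libraries, which may be technical.

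The phagocyte oxidase moves electrons from NADPH across a membrane to oxygen, which yields superoxide. Its membrane core is a heterodimer of CYBB, the catalytic chain, and CYBA, a partner chain that other NADPH oxidases share. Cytosolic subunits, among them NCF1 and NCF4, and a RAC GTPase join the core when the cell is activated. Superoxide dismutases convert superoxide to hydrogen peroxide, SOD1 mainly in the cytosol and SOD2 in mitochondria, and catalase, encoded by CAT, breaks hydrogen peroxide down in peroxisomes. Neutrophils and the neutrophil-like PMN-MDSCs carry the oxidase at high levels, while NOX4 is the relative of CYBB found in many epithelial and thyroid cells.

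Coculture libraries held transcripts of the oxidase's phagocyte-restricted chains that control libraries nearly lacked, and more of the mitochondrial dismutase. CYBB averaged 5.80 ± 2.26 CPM (read counts scaled to a common library size; SD, n = 6) in coculture and 0.0736 ± 0.0546 CPM in control (n = 4), NCF1 averaged 0.849 ± 0.338 CPM in coculture and had no count in control, and SOD2 averaged 585 ± 185 CPM in coculture and 149 ± 21.2 CPM in control. CYBA, RAC2, SOD1 and CAT were abundant in both groups and none of these 4 passed the test. NCF4 had 1 count in all and NOX4 had 0.

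The start regions of the 3 genes that passed the test are shown so that their base composition and short motifs can be read beside the values. RefSeq windows on GRCh38.p14, which span 250 bases before to 50 bases after an annotated start, were at hand for 6 of the 9 genes, and SOD2 had 4 of them. The 250 bases before the start are printed for CYBB (chrX:37779809-37780058, + strand), NCF1 (chr7:74773761-74774010, + strand) and the SOD2 window of lowest coordinate (chr6:159693242-159693491, − strand), in lower case from 5′ to 3′. Capitals mark matches to 3 words. The first is GAGGAA, a core that the myeloid ETS factor PU.1 can bind, which reads TTCCTC on the other strand. The second is GGGCGG, the GC box, which reads CCGCCC on the other strand. The third is CCAAT, the CCAAT box, which reads ATTGG there.
CYBB: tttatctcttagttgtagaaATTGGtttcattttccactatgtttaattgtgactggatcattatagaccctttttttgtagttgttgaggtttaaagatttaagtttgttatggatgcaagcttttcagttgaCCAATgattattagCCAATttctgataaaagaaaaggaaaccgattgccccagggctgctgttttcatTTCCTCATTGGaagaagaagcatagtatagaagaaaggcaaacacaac
NCF1: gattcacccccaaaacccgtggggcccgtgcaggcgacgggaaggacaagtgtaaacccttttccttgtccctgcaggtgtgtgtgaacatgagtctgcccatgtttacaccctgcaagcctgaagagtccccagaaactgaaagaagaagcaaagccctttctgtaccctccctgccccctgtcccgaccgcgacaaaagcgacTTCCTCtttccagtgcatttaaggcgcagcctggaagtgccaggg
SOD2: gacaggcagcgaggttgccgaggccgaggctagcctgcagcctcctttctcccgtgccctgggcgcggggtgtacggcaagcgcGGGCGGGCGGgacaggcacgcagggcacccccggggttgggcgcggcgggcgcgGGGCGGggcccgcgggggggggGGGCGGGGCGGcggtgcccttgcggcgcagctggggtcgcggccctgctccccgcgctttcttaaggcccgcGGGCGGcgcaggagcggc

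Over the whole window, G and C made up 37.7% of bases for CYBB, 57.3% for NCF1 and 78.3% for SOD2. CYBB and NCF1 each held 1 GAGGAA core, both on the opposite strand, with the first base of the match 48 and 45 bases before the start. CYBB also held 4 CCAAT matches, 1 of which directly followed the GAGGAA match without sharing a base. The printed SOD2 window held 6 GC boxes, some of which shared bases with the next, and neither of the other 2 motifs. Of its 3 other windows, which are not printed, 2 held 1 GAGGAA core each, 2 held CCAAT (1 and 3 matches) and all held a GC box, so the SOD2 windows differed among themselves. Among 35116 RefSeq windows of this length, 27.9% held GAGGAA on either strand, 45.0% held GGGCGG and 34.6% held CCAAT, so none of these words is rare. The other genes with windows were NOX4, CYBA and CAT. NOX4 held 2 GAGGAA cores in its window of lowest coordinate and 0 in its other windows, while CYBA and CAT held 0. A match describes the letters alone, and no binding was measured.

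Library totals lay between 40237801 and 48197608 counts, and a floor of 3 counts corresponded to 0.0622 to 0.0746 CPM. Coculture 1 and 2 stood apart from the other 8 libraries on the first principal component of all genes (39.3% of the variance), at -66.1 and -60.6 against 0.908 to 31.8. Among markers of the labelled cells, KRT8 and KRT18, keratins of simple epithelia, and PAX8, a thyroid transcription factor, were abundant in all libraries. EPCAM, CDH1, NKX2-1, TSHR and SLC5A5 were at or near 0 in both groups. Of 12 such epithelial and thyroid markers 7 were tested, and 0 were called by edgeR, DESeq2 or limma-voom, with 2 at an unadjusted p under 0.05. With edgeR's quasi-likelihood test and Benjamini-Hochberg adjustment over 15629 genes, calls at an adjusted p under 0.05 went up in coculture for 178 genes (1.14%) and down for 29 (0.186%), and the median log2 fold change of all genes was 0.01. The genes called higher numbered 112 without control 3 and 110 without control 4, and those called lower numbered 4 to 36 over libraries left out singly.

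Of the 9 genes, 3 were called higher (CYBB, NCF1 and SOD2, against a background of 1.14% of genes), 0 were called lower (background 0.186%), 4 were tested and not called, and 2 were not tested. The test that gave 0 lower calls was edgeR's, and no member had a negative fold change with an unadjusted p under 0.05 in it or an adjusted one under 0.05 in DESeq2 or limma-voom. CYBB and NCF1 passed the filter on low counts through their coculture counts alone, since 0 of 4 control libraries had 10 counts of either gene, so a filter of this kind already favours a difference. The same 3 genes were higher in every coculture library than in every control library, a pattern found for 2.45% of all genes tested. For CYBA, RAC2 and CAT, coculture 1 and 2 both lay above the other 8 libraries, a pattern that 22.4% of all genes shared.

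**Figure D1:**
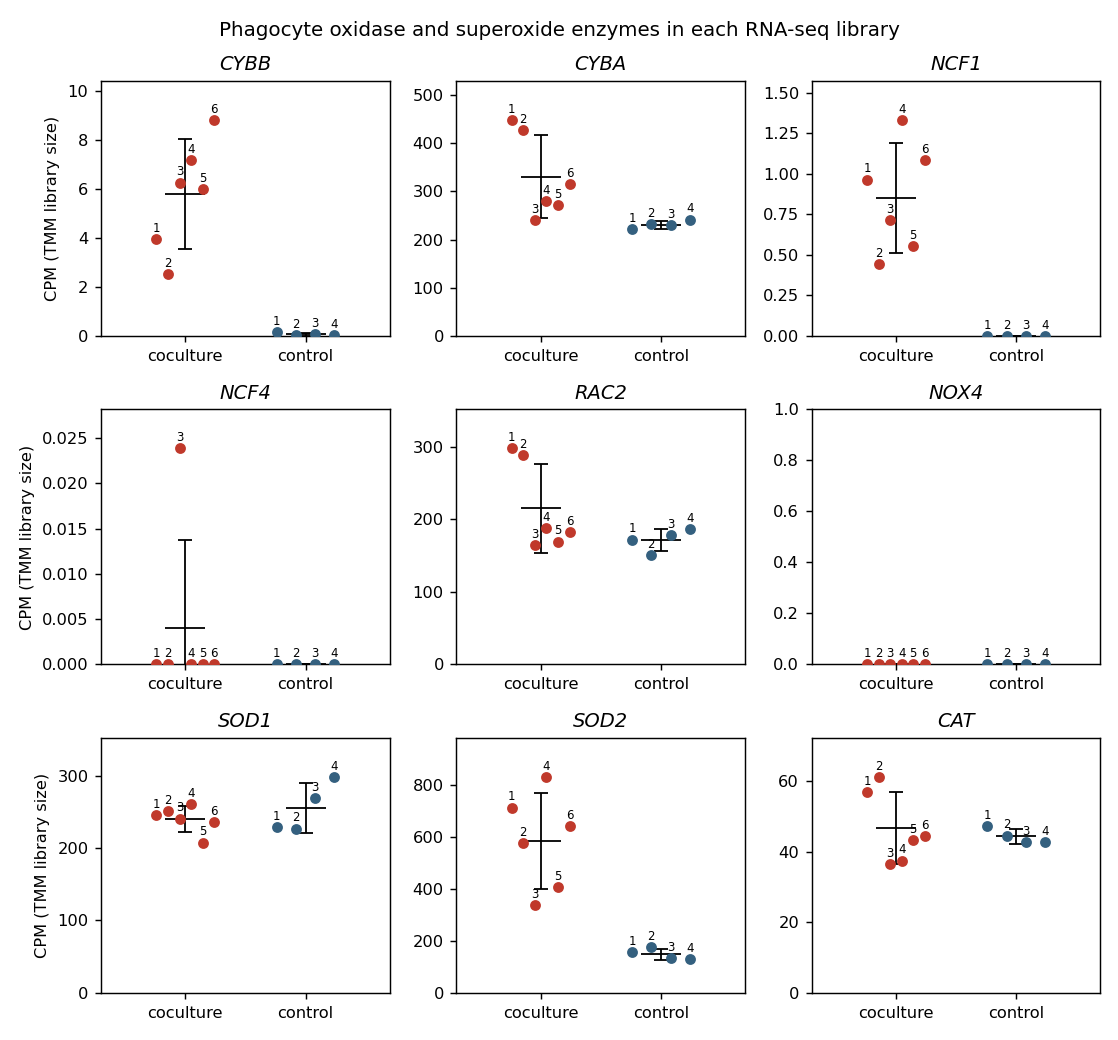
CPM with TMM library sizes (linear axes, each gene on its own scale) of the 9 genes in the 6 coculture libraries (red, left) and the 4 control libraries (blue, right); small digits are library numbers, horizontal lines are means and bars are SD. CYBB, NCF1 and SOD2 show no overlap between groups, and coculture 1 and 2 are the highest points for CYBA, RAC2 and CAT.

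CYBB, the catalytic chain (X:37780017-37813461, + strand, coordinates of the deposited table), had 173, 120, 263, 302, 238 and 367 counts in coculture 1 to 6, against 7, 2, 3 and 1 counts in control 1 to 4. In CPM these were 3.97, 2.53, 6.27, 7.18, 6.01 and 8.84 in coculture, against 0.150, 0.0494, 0.0728 and 0.0226 in control. All coculture libraries lay far above all controls, and coculture 1 and 2 were the lowest of their group. The ratio of the group means was 78.8, and the fitted log2 fold change was 6.22 ± 0.50 (SE), with an edgeR adjusted p of 8.44e-05. It was 6.49 without coculture 1 and 2 (edgeR adjusted p = 1.37e-07). Within the coculture group the highest CYBB level was 3.50 times the lowest.

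CYBA, the partner chain of CYBB (16:88643289-88651084, − strand), was plentiful without PMN-MDSCs. Its level was 448, 427, 240, 281, 272 and 316 CPM in coculture 1 to 6, against 221, 232, 230 and 241 CPM in control 1 to 4. Coculture 1 and 2 were the 2 highest libraries, and coculture 3 fell just below control 4, so the groups overlapped. The means were 331 ± 86.6 CPM in coculture and 231 ± 8.26 CPM in control, with a log2 fold change of 0.52 ± 0.17 (edgeR adjusted p = 0.260). Without coculture 1 and 2 the fold change was 0.25 on the log2 scale (edgeR adjusted p = 0.162). Per length, CYBA exceeded CYBB 69.1 to 327 times in coculture libraries and 2862 to 20672 times in control libraries, and the control ratios rest on 1 to 7 CYBB counts.

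NCF1, the cytosolic organizer that binds CYBA's tail when phosphorylated (7:74773962-74789376, + strand), had 42, 21, 30, 56, 22 and 45 counts in coculture 1 to 6 and 0 counts in each of control 1 to 4. Its coculture levels were 0.963, 0.442, 0.715, 1.33, 0.556 and 1.08 CPM. Every coculture library held the transcript at a low level, and no control library had a count of it. Against the mean floor of 3 counts per control library, the coculture mean was at least 12.2-fold higher. The edgeR adjusted p was 0.00107, and the fitted log2 fold change of 8.19 depends on the prior count, because all controls were at 0. Without coculture 1 and 2 the edgeR adjusted p was 0.000492.

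NCF1 has near-identical pseudogene copies, NCF1B and NCF1C, and no source used here says how reads that fit several copies were counted. NCF1B had 45 counts over the coculture libraries and 0 over the controls, NCF1C had 89 in coculture and 1 in control, and NCF1 itself had 216 in coculture and 0 in control. NCF1 took 63.2 ± 7.62% (SD, n = 6) of the counts of the 3 copies in coculture. All 3 copies were thus seen in coculture, and the split of reads among them is uncertain.

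NCF4, a cytosolic subunit that binds a phosphoinositide of phagosome membranes, had 1 count in coculture 3 and 0 counts in the other 9 libraries, and the filter removed it. The deposited table places NCF4 on a scaffold outside the chromosomes. Of 696 coding genes placed on such scaffolds, 46.6% had no count in any library, against 13.9% of 19452 coding genes placed on chromosomes. A low NCF4 count therefore cannot be read as a low transcript level in these data.

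RAC2, the RAC GTPase typical of blood cells (22:37225261-37244299, − strand), was abundant in the control cancer cells too. It was at 298, 289, 165, 187, 169 and 183 CPM in coculture 1 to 6, against 172, 151, 179 and 187 CPM in control 1 to 4. Coculture 3, 5 and 6 lay inside the span of the controls, coculture 4 at its upper edge, and coculture 1 and 2 far above it. The means were 215 ± 61.2 CPM in coculture and 172 ± 15.1 CPM in control, and the log2 fold change was 0.32 ± 0.18 (edgeR adjusted p = 0.605). It was 0.02 without coculture 1 and 2 (edgeR adjusted p = 0.946). Per length, RAC1, the widely expressed RAC, was at 0.806 ± 0.253 of RAC2 in coculture and at 0.912 ± 0.0907 of it in control, with a range of 0.453 to 1.12 in coculture and 0.793 to 1.01 in control.

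CYBA and RAC2 kept a similar ratio from library to library. Per length, CYBA over RAC2 was 1.05 ± 0.0705 in coculture and 0.913 ± 0.0822 in control, and the ranges of this ratio overlapped, although each gene alone varied by 1.87 and 1.81 times among the coculture libraries.

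NOX4, a homologue of CYBB that makes hydrogen peroxide without the cytosolic subunits (11:89324353-89589611, − strand), had 0 counts in all 6 coculture and all 4 control libraries. A count of 0 allows up to 3 counts in a library, or 0.0622 to 0.0746 CPM, so NOX4 was not detectable at this depth in either group.

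SOD2, the mitochondrial manganese superoxide dismutase (6:159679064-159762529, − strand), had 31066, 27407, 14214, 34960, 16163 and 26603 counts in coculture 1 to 6, against 7358, 7112, 5514 and 5785 counts in control 1 to 4. In CPM these were 712, 577, 339, 831, 408 and 641 in coculture, against 157, 176, 134 and 131 in control. The lowest coculture library, coculture 3, was still well above the highest control. The coculture mean was 3.92 times the control mean, and the log2 fold change was 1.97 ± 0.23 (edgeR adjusted p = 0.000874). It was 1.88 without coculture 1 and 2 (edgeR adjusted p = 0.0160). SOD2 levels varied 2.45 times among coculture libraries, in an order that differed from that of CYBA and RAC2, with coculture 4 the highest.

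The SOD2 row overlaps WTAP and ACAT2 on the opposite strand, and no source used here says whether counting used strand. WTAP, a subunit of the RNA methylation complex, had 39443 counts over the 10 libraries and a log2 fold change of 0.05 ± 0.11 (edgeR adjusted p = 0.911). ACAT2, a cytosolic thiolase of the sterol pathway, had 55193 counts and a log2 fold change of -0.04 ± 0.08 (edgeR adjusted p = 0.906). Neither WTAP nor ACAT2 passed the test, while SOD2 had 176182 counts over the same libraries. On its own strand the SOD2 row also overlaps HNRNPH1P1, RNU4ATAC18P and LOC100129518, which had 157, 104 and 31 counts.

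SOD1, the cytosolic copper-zinc dismutase (21:31659622-31668931, + strand), did not follow SOD2. It was at 245, 251, 241, 260, 207 and 236 CPM in coculture 1 to 6, against 228, 227, 269 and 298 CPM in control 1 to 4. The groups overlapped throughout, and the log2 fold change was -0.09 ± 0.10 (edgeR adjusted p = 0.808). SOD1 was the steadiest of the 7 tested genes within coculture, where the highest library was 1.26 times the lowest.

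CAT, the catalase (11:34438925-34472060, + strand), was at 56.8, 61.1, 36.5, 37.4, 43.3 and 44.4 CPM in coculture 1 to 6, against 47.2, 44.5, 42.7 and 42.6 CPM in control 1 to 4. Coculture 1 and 2 lay above all controls, coculture 3 and 4 below all controls, and coculture 5 and 6 among them. The means were 46.6 ± 10.2 CPM in coculture and 44.3 ± 2.16 CPM in control, with a log2 fold change of 0.07 ± 0.15 (edgeR adjusted p = 0.908). Without coculture 1 and 2 it was -0.15 (edgeR adjusted p = 0.499), so its sign rested on those libraries.

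Set against one another per length, as RPKM (CPM divided by the deposited gene length in kilobases), the 7 tested genes spanned a wide range. CAT lay below SOD2 and above CYBB in every library. In coculture the order of mean levels was SOD1 at 249 ± 18.8, CYBA at 148 ± 38.8, RAC2 at 142 ± 40.5, SOD2 at 137 ± 43.5, CAT at 20.3 ± 4.43, CYBB at 1.34 ± 0.523 and NCF1 at 0.582 ± 0.231 RPKM. In control it was SOD1 at 265 ± 35.7, RAC2 at 114 ± 10.02, CYBA at 103 ± 3.70, SOD2 at 35.1 ± 4.99, CAT at 19.2 ± 0.939 and CYBB at 0.0170 ± 0.0127 RPKM. The levels of CYBA, RAC2 and SOD2 overlapped in coculture, with each gene above the next in 4 of 6 libraries, whereas in control SOD2 lay below CYBA and RAC2 in all 4 libraries. CYBA and RAC2 also overlapped in control, and CYBB and NCF1 overlapped in coculture although CYBB was the higher in each of its 6 libraries.

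Within single libraries the balance between the dismutases differed between the groups. SOD2 over SOD1, per length, was 0.547 ± 0.149 in coculture, with a range of 0.320 to 0.724, and 0.136 ± 0.0359 in control, with a range of 0.0994 to 0.176. SOD2 over CAT was 6.96 ± 2.71 in coculture and 1.82 ± 0.217 in control. Neither ratio overlapped between the groups, and both follow from the SOD2 levels given above.

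**Figure D2:**
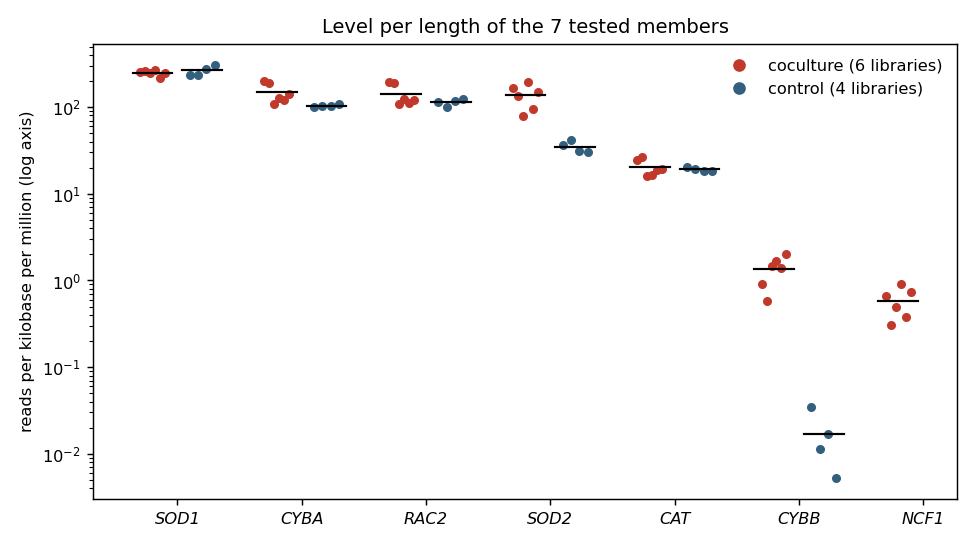
Level per length in RPKM (log axis) of the 7 tested genes in coculture (red, left of each pair) and control (blue, right of each pair) libraries; points are libraries, lines are means, and NCF1 values of 0 in control cannot be drawn on a log axis. SOD2 sits beside CYBA and RAC2 in coculture and below them in control, and CYBB and NCF1 stay under all other genes in both groups.

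The remaining parts of the oxidase system were read from a list of 17 other NADPH oxidase and regulator genes, of which 11 were tested. Of these 11, 1 was called higher, 0 lower and 10 were not called, against 1.14% and 0.186% of all genes. Their median log2 fold change was 0.38, with 11 of 11 positive, against 0.01 for all genes tested. Without coculture 1 and 2 the median was 0.15, with 9 of 11 positive, and NOX5 (-0.08) and PRKCD (-0.15), a kinase that phosphorylates the cytosolic subunits, changed sign on the log2 scale. No gene of the list was lower at an unadjusted p under 0.05 or by DESeq2 or limma-voom, and each of these tools also called 1 gene higher.

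The called gene was VAV1, a blood-cell exchange factor that loads RAC with GTP. It had 157 counts in coculture libraries and 1 count in control libraries, a ratio of 106 after scaling to library size, with a 95% counting interval of 18.7 to 4208 (edgeR adjusted p = 0.00180). Its levels were 0.734, 0.358, 0.525, 0.452, 0.303 and 1.32 CPM in coculture 1 to 6, and the single control count was in control 4, so the groups did not overlap. No control library had 10 counts of VAV1, so it passed the filter through coculture alone, as CYBB and NCF1 did. PRKCB, a gene of the same list that the filter removed, had 107 counts in coculture and 1 in control. The ratio was 72.1 after scaling to library size, with a 95% counting interval of 12.7 to 2876. Every coculture library lay above every control for PRKCB, and with no filter it was called higher (edgeR adjusted p = 0.00105).

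The RAC and CYBA-linked genes of that list that serve many cell types were not called. RAC1 was at 255 ± 28.2 CPM in coculture and 249 ± 25.1 CPM in control, and CYBC1, a chaperone of the CYBB and CYBA heterodimer, was at 58.3 ± 2.90 CPM in coculture and 51.6 ± 2.33 CPM in control (edgeR adjusted p = 0.451). NOX5, a calcium-activated oxidase, was singled out after its values were seen, because its level was high and uneven. It had 2149, 2451, 360, 285, 452 and 395 CPM in coculture 1 to 6, against 767, 393, 174 and 225 CPM in control 1 to 4. Coculture 1 and 2 stood far above the rest and the groups overlapped, with a log2 fold change of 1.38 ± 0.70 (edgeR adjusted p = 0.560).

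The other enzymes for superoxide and peroxide were read from a list of 21 genes. Of these glutathione peroxidases, peroxiredoxins, thioredoxins, their reductases and relatives of SOD, 15 were tested and 0 were called by edgeR, DESeq2 or limma-voom, where the shares over all genes in edgeR were 1.14% higher and 0.186% lower, and 1 had an unadjusted p under 0.05. Their median log2 fold change was -0.01. The 3 genes of lowest p were GPX4, which reduces lipid peroxides (0.51 ± 0.23, edgeR adjusted p = 0.504), PRDX5, a peroxiredoxin (0.49 ± 0.23, edgeR adjusted p = 0.529), and TXNRD2, the mitochondrial thioredoxin reductase (-0.19 ± 0.13, edgeR adjusted p = 0.689). GPX3, a secreted glutathione peroxidase that the filter removed, had 94 counts in coculture and 3 in control, a ratio of 21.1 after scaling to library size, with a 95% counting interval of 7.01 to 104. Every coculture library lay above every control for GPX3, and with no filter it was called higher (edgeR adjusted p = 0.00891).

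The antioxidant programme of NRF2, a transcription factor released from KEAP1 by oxidants, was read in the same way. All 15 genes of its list were tested and 0 were called by edgeR, DESeq2 or limma-voom, beside the same shares of 1.14% and 0.186% over all genes, and 1 had an unadjusted p under 0.05, in the lower direction. A count of 0 among so few genes is near these shares, for this list and for the peroxide list alike. The median log2 fold change was -0.12, with 5 of 15 positive. NQO1, a quinone reductase, had a log2 fold change of -0.33 ± 0.14 (edgeR adjusted p = 0.431), HMOX1, which degrades heme, had -0.62 ± 0.33 (edgeR adjusted p = 0.586) and TKT, of the pentose phosphate pathway, had -0.14 ± 0.08 (edgeR adjusted p = 0.600).

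**Figure D3:**
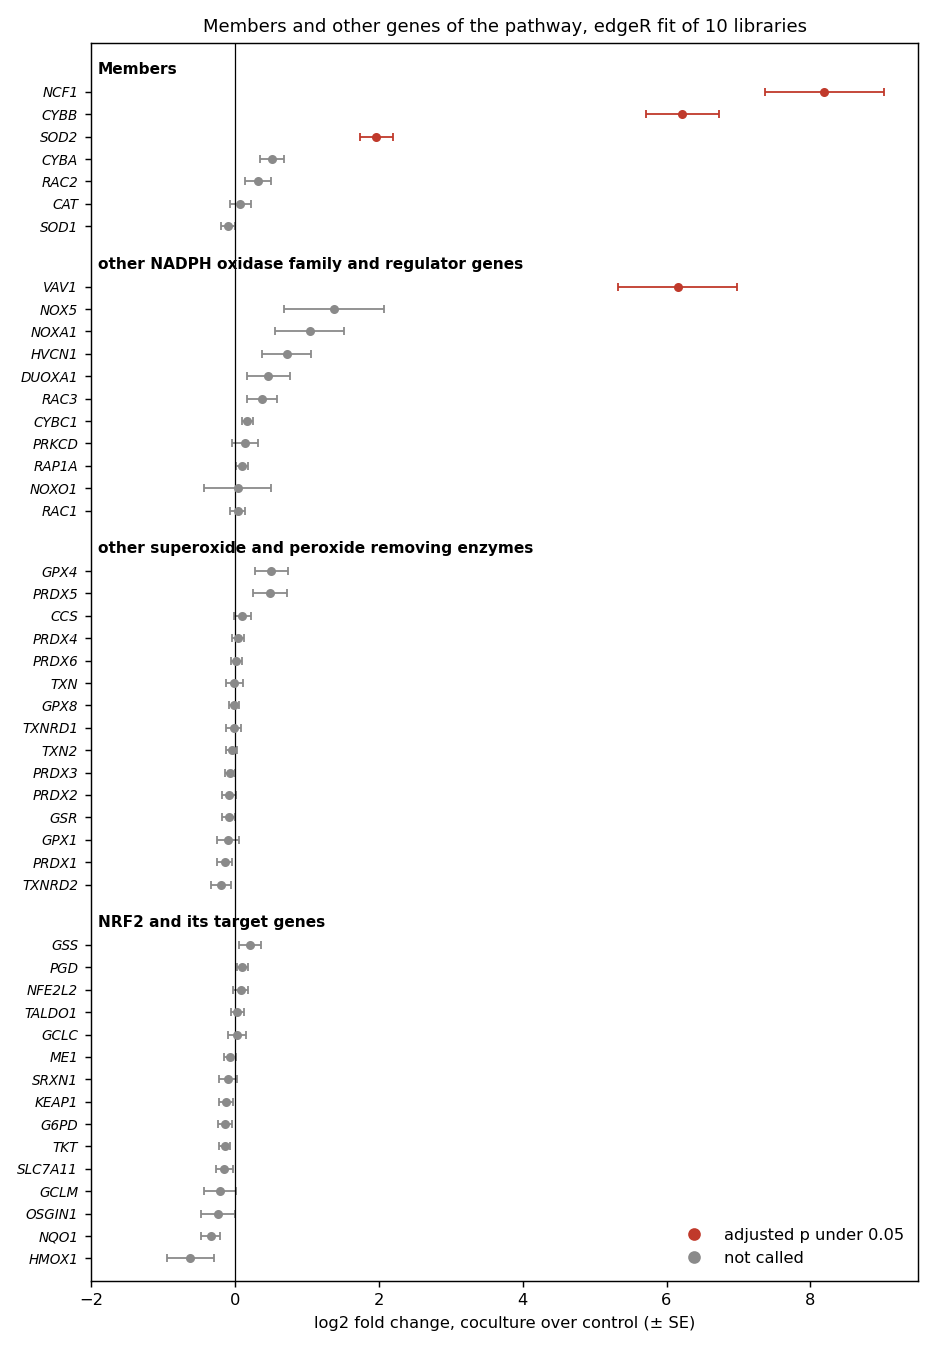
Fitted log2 fold changes, coculture over control, with SE bars, of the 7 tested members and of the tested genes of 3 lists; red marks an adjusted p under 0.05 and grey marks genes not called. NCF1, CYBB and SOD2 stand apart among the members, VAV1 in the oxidase list, and no gene is called in the other lists; the NCF1 value depends on the prior count.

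Markers of white blood cells differed between the groups along with CYBB and NCF1. Of 27 neutrophil, monocyte and pan-leukocyte markers, 13 were tested, of which 11 were higher, 0 lower and 2 not called, where 1.14% of all genes were higher and 0.186% lower. No control library had 10 counts for 8 of the 11, which passed the filter through coculture alone, and 14 of the 27 had no count in any control library. The 2 not called were CORO1A and FPR1. CORO1A was at 8.73 ± 3.85 CPM in coculture and 6.57 ± 0.601 CPM in control, and FPR1 at 7.65 ± 2.33 CPM in coculture and 7.45 ± 1.41 CPM in control. LYZ, the lysozyme of myeloid cells, was at 13.9 ± 2.17 CPM in coculture and 0.0860 ± 0.0783 CPM in control, and CD14, a monocyte receptor for lipopolysaccharide, was at 2.90 ± 1.22 CPM in coculture and 0.0863 ± 0.0435 CPM in control. SPI1, which encodes PU.1, was at 1.96 ± 0.980 CPM in coculture and 0.265 ± 0.148 CPM in control (SD, n = 6 and 4 throughout). CXCR2, FCGR3B, ELANE, PRTN3 and ARG1, which mark neutrophils and their granules, were at 0 in all 10 libraries. Some other myeloid genes, which are not particular to neutrophils, lay higher in coculture. S100A9, a calcium-binding protein of neutrophils and monocytes, had 235 counts in coculture and 1 in control (edgeR adjusted p = 0.000998), and its partner S100A8 had 53 in coculture and 0 in control. ITGAM, an integrin chain of myeloid cells, had 297 counts in coculture and 3 in control (edgeR adjusted p = 0.000334). CSF3R, the receptor for granulocyte growth factor, had 6, 0, 0, 1, 3 and 1 counts in coculture 1 to 6 (11 in all). MPO, the granule peroxidase, had 3, 0, 0, 3, 4 and 0 there (10 in all). Both were at 0 in control, and with no filter neither was called (edgeR adjusted p = 0.504 and 0.567). CEACAM8, AZU1 and S100A12 had 1 count each, in coculture. OLR1 had 5, 3, 0, 0, 3 and 0 counts in coculture 1 to 6 and 1 count in control 2. With no filter OLR1 was not called (edgeR adjusted p = 0.614). Of macrophage genes, MRC1 had 127 counts in coculture and 0 in control (edgeR adjusted p = 0.00894). CSF1R had 709 and 87 (edgeR adjusted p = 0.00536), and CD163 had 2 and 1. The 27 markers summed to 47.2 to 71.1 CPM in coculture libraries and 15.2 to 18.4 CPM in control libraries. The 24 markers under 1 CPM in controls summed to 18.4 to 36.1 CPM in coculture and 0.641 to 1.55 CPM in control. In bulk RNA, more cells of a type and more RNA of a gene per cell cannot be told apart. The part of the cells that carry these markers in the CYBB, NCF1, VAV1 and SOD2 results was not tested.

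CYBB did not keep a fixed ratio to LYZ. Its counts were 0.257, 0.258, 0.425, 0.514, 0.440 and 0.559 of those of LYZ in coculture 1 to 6, lowest in coculture 1 and 2. Markers of lymphoid, erythroid, fibroblast and endothelial cells summed to 138 CPM in coculture 1, to 4.27 to 9.92 CPM in coculture 2 to 6 and to 3.54 to 7.03 CPM in control. Of 18 such markers 4 were tested and 0 called by edgeR, DESeq2 or limma-voom, with 1 at an unadjusted p under 0.05.

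**Figure D4:**
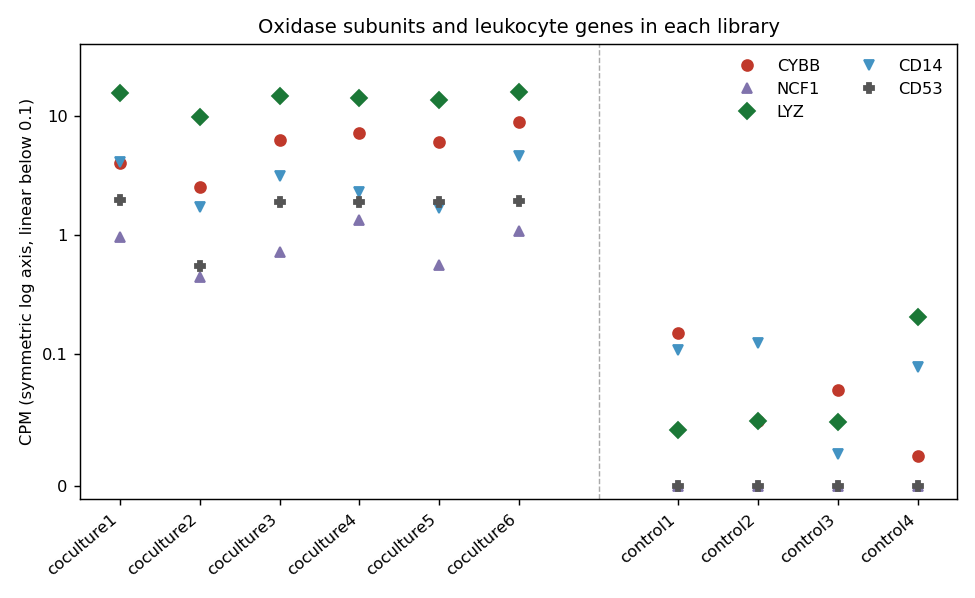
CPM (symmetric log axis, linear below 0.1) of CYBB and NCF1 and of the leukocyte genes LYZ, CD14 and CD53 in coculture 1 to 6 (left of the dashed line) and control 1 to 4 (right). All 5 genes lie higher in every coculture library than in every control library, and NCF1 and CD53 are at 0 in all controls.

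The genes whose library profiles came closest to the 3 called members were ranked by the root mean square difference of log2 CPM, each gene centred on its mean over the 10 libraries, among genes with a mean of at least 1 CPM. For CYBB these were CD53 (0.52), ACP5 (0.60) and IL1RN (0.64), and for NCF1 they were CXCL8 (0.35), CTSS (0.41) and CD14 (0.49). For SOD2 they were PTX3 (0.19), MMP1 (0.28) and TRAF1 (0.28). PTX3, a secreted pattern recognition protein, was at 25.4 ± 7.14 CPM in coculture and 7.60 ± 1.31 CPM in control, and MMP1, a collagenase, was at 40.8 ± 18.2 CPM in coculture and 11.7 ± 0.599 CPM in control. TRAF1, an adaptor of tumor necrosis factor receptors, was at 8.85 ± 2.21 CPM in coculture and 3.00 ± 0.367 CPM in control. All profiles share the same 10 libraries and the same group difference, so these distances are descriptions. The log2 CPM of the profiles carried a prior count, which shrinks the group difference of genes at or near 0 in control. The neighbours of NCF1 and CYBB therefore depend on that prior count, and NCF1 itself lay under the 1 CPM limit set for them.

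SOD2's nearest genes were expressed in the controls, as SOD2 was. Of the genes near CYBB by profile, CD53 and IL1RN had no count in control and ACP5 was at 0.0667 ± 0.0705 CPM there. CXCL8, nearest to NCF1 by profile, was at 302 ± 185 CPM in coculture and 20.4 ± 1.49 CPM in control, far above NCF1 in level. The fitted log2 fold changes were 3.89 for CXCL8 and 8.19 for NCF1, and the closeness of their profiles rests on the prior count.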

How the data were processed

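RNA-seq of 6 coculture and 4 control libraries was analysed. The miRNA-seq libraries were left out, since no member is a miRNA. The values are raw counts of reads per gene, as the authors deposited them. The submitters' processing notes name the build GRCh38.p10, BWA and HISAT2 2.0.4 without a role. No source used here gives the counting tool, annotation or strand setting. No per-sample column was left out (0).

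Counts were fitted once over the whole table in R 4.3.3 with edgeR 4.0.16 (TMM, filterByExpr by group, robust glmQLFit, glmQLFTest, Benjamini-Hochberg over 15629 genes, threshold 0.05). The SE is the log2 fold change divided by the square root of F. CPM used TMM library sizes, and RPKM the deposited gene lengths. Floors of 3 counts and 95% intervals cover counting error only. Library pairs of a group differed by at least 6.86 chi-square units per degree of freedom, so all were kept. The fitting functions were tested on simulated counts, with changes set only in genes above a mean of 1 CPM. No split among libraries of a group was simulated, and changes in genes as low as NCF1 were not covered.

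The genes and lists were chosen with earlier results of these data known. Named were the 9 members, per pathway list up to 4 called genes each way by adjusted p or else the 3 of lowest p, and the 3 genes of nearest profile per called member. Marker genes, overlapping genes, NCF1 copies, RAC1, CYBC1, NOX5, PRKCB, PRKCD and GPX3 were named after their values were seen. From the lists and the profile ranking, 2 genes were left out and are not reported here. Alternatives were RLE factors, no filter, DESeq2 1.42.0, limma-voom (limma 3.58.1), a replicate block, each library left out, and coculture 1 and 2 left out.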

Additional observations from a re-analysis of the deposited data

Results flagged for a closer look

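In coculture, NCF4 stood at 0.0238 CPM in coculture 3, a single count, while the other 5 coculture libraries were at 0. The value stood out because its gap to the nearest library spanned the whole range of the group, which a lone count among values of 0 does by construction. It was the only one of 14 sets of library values checked, 1 per gene and group with any count, that was flagged. The rule flags about 1 in 20 groups by chance, a rate that does not apply to a lone count.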

How the results depend on the processing

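The calls of CYBB and SOD2 held under all 16 alternatives, with log2 fold changes of 5.92 to 6.83 for CYBB (edgeR, DESeq2 or limma adjusted p up to 0.00866) and 1.84 to 2.09 for SOD2 (adjusted p up to 0.0160). NCF1 kept its call in 15 of 16, and with the replicate block it had a log2 fold change of 8.23 and an edgeR adjusted p of 0.0745, where the cause was not tested. Numbers 5 and 6 occur in coculture only, so coculture 5 and 6 add nothing to the group contrast in any fit with the block. CYBA (0.25 to 0.59), RAC2 (0.02 to 0.40) and SOD1 (-0.14 to -0.01) kept their signs and stayed uncalled. CAT changed sign to -0.019 without coculture 2 and to -0.15 without coculture 1 and 2, and over libraries left out singly it ran from -0.019 to 0.14.

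Over all genes, 178 were higher and 29 lower, against 333 and 106 with DESeq2, 100 and 10 with the replicate block, and 110 to 206 and 4 to 36 with 1 library left out. Without coculture 1 and 2, 115 genes were lower. Deviations of same-numbered libraries correlated at 0.35, -0.08, 0.20 and 0.14, so 3 of 4 exceeded 0.1, and 2 of 4 coculture libraries matched their own number best. The labels give the numbers no meaning, and as not all 4 exceeded 0.1 the fit without the block was kept. Of 192 list counts under alternatives, 189 stayed within 1.5 times. With no filter 2 genes of the oxidase list were higher, against 1, and 1 gene of the superoxide and peroxide list was (GPX3, 94 counts in coculture and 3 in control), and with the block 6 leukocyte markers were, against 11. All 14 levels per length stayed within 1 SD with RLE factors. Depth limits NCF1, NCF4, NOX4 and the control values of CYBB, which rest on 0 to 7 counts a library.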
